A study of Mus musculus with 6 samples.

Results

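The BCL-2 family holds the proteins that keep a mitochondrion closed and those that open it during cell death, and 10 of its genes were examined in cultured mouse CD8+ T cells: Bcl2, Bcl2l1, Mcl1, Bcl2l11, Bid, Bad, Bbc3, Pmaip1, Bax and Bak1. They were taken by gene symbol. On the 3 array types 21 of 36899 probe sets were annotated to one of these genes alone, 13 on SubA, 3 on SubB and 5 on SubC. Of the 21, 9 have a name with a suffix beyond the plain ending, among them all 5 on SubC. These 21 probe sets covered 9 of the 10 genes, since no probe set used here was named for Bax. The 2 kinds of cells were central memory cells (CM), kept in IL-15 for 7 days after 2 days with peptide, and effector/effector memory cells (E/EM), kept in IL-2 for the same time after the same stimulation. Both came from spleen and lymph node cells of female mice on the C57Bl/6 background with the P14 transgenic T cell receptor, and each kind was then sorted for cells high (CM) or low (E/EM) for a surface marker. The cytokine and the sort differ together between the kinds and cannot be told apart. The number of mice and any pooling are not given in the labels.

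RNA of each kind was hybridised to 1 array of each type, 6 arrays in all, with no replicate. No test was possible, and the values describe these arrays. The deposited values are linear signal intensities. A probe set was counted as measured where its signal on both arrays exceeded the floor of its array type, which was set from bacterial control probe sets and came to 31.28 on SubA, 88.12 on SubB and 194.34 on SubC. Ratios are CM over E/EM signal on the log2 scale, a gene's value is the mean over its measured probe sets, and the standard deviation (SD) given with it is over those probe sets and is technical. Signals of different probe sets are not comparable with each other, because each binds its target with its own strength.

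Cells that lose growth signals die through the mitochondrial pathway, in which BAX and BAK form pores in the outer mitochondrial membrane and release cytochrome c. BCL-2, BCL-XL (the product of Bcl2l1) and MCL-1 hold these pore formers in check. The BH3-only proteins carry the stress signal: BIM (Bcl2l11), PUMA (Bbc3) and BID can bind all of the guardians, BAD binds mainly BCL-2 and BCL-XL, and NOXA (Pmaip1) binds mainly MCL-1. In T cells, BIM is known for the death of activated cells when an immune response ends, and cytokines of the common gamma chain family, to which IL-2 and IL-15 belong, are known to sustain BCL-2 and MCL-1.

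The comparison asked how far the transcripts of this death and survival switch differ between CM and E/EM cells. None of the family's 9 measured genes was at least 2-fold lower in CM cells, against a background of 5.61% of the 10946 named genes measured on these arrays, and none was at least 2-fold higher, against 2.73%. The 9 gene values ran from -0.88 for Pmaip1 to 0.59 for Bid, with a median of 0.08 and quartiles of -0.46 and 0.47, beside a median of -0.0025 and quartiles of -0.33 and 0.29 over all measured genes. By a smaller rule of 1.5-fold, chosen after it was seen that no gene passed 2-fold, Pmaip1 was lower in CM cells (13.9% of all measured genes were) and Bid was higher (10.1% were). Bid only just passed, at 1.505-fold. With the ratios of each array type centred on their median, it had a log2 ratio of 0.5789, which is under 1.5-fold. Counts of 0 and 1 among 9 genes are near these background shares and are no result about the family.

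**Figure D1:**
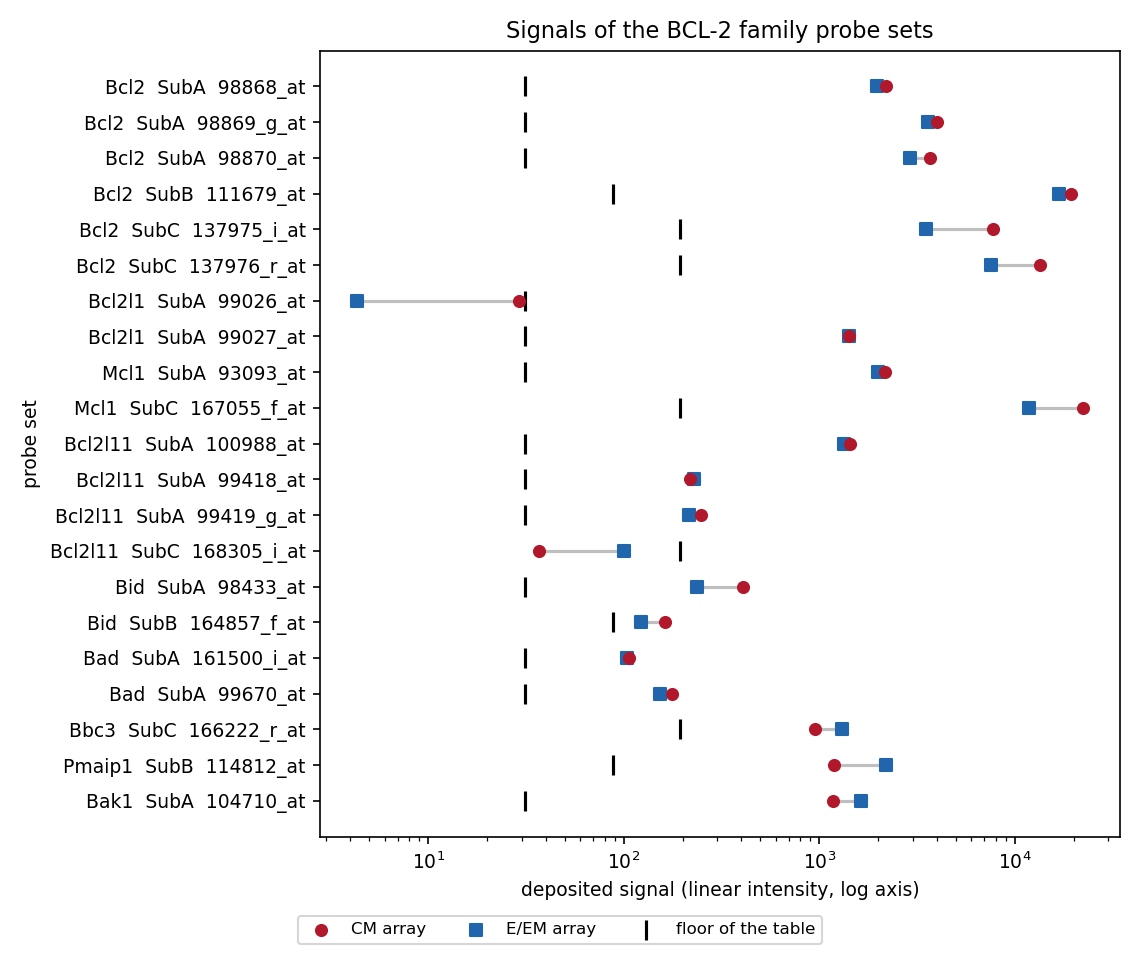
Deposited signal of the 21 probe sets of the family (log axis), with the CM array as a red circle, the E/EM array as a blue square and the floor of the array type as a black tick. In 2 probe sets, one of Bcl2l1 and one of Bcl2l11, both signals lie at or under the floor; the other 19 exceed it on both arrays, and the widest gap among these is that of a SubC probe set of Bcl2, with 7745.5 in CM and 3535.4 in E/EM cells.

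Of the genes for the 3 guardians, Bcl2 was covered best, by 6 probe sets on 3 array types, all far above the floor. On SubA its signals were 2203.6, 3997.2 and 3679.4 in CM cells, against 1973.2, 3588.1 and 2924.3 in E/EM cells. On SubB the signal was 19295.4 in CM and 16835.8 in E/EM cells. These 4 probe sets lay close together, with log2 ratios of 0.16, 0.16, 0.33 and 0.20, a mean of 0.21 ± 0.08 (SD, 4 probe sets). On SubC the gap was wider: 1 probe set had 7745.5 in CM and 3535.4 in E/EM cells, a ratio of 1.13, and the other had 13470.1 in CM and 7517.1 in E/EM cells, a ratio of 0.84. The CM signal was thus the higher one in all 6 probe sets, and the mean of 0.47 ± 0.42 (SD, 6 probe sets) stands at the 85.1% point of all measured genes. Quantile normalization turned the SubB probe set to -0.04 and left the direction of the other 5.

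Mcl1 encodes a short-lived guardian that T cells need at every stage. It showed the same split between array types as Bcl2. Its SubA probe set had 2175.0 in CM and 2006.3 in E/EM cells (log2 ratio 0.12), and its SubC probe set had 22447.6 in CM and 11860.9 in E/EM cells (0.92). The mean was 0.52 with an SD of 0.57, larger than the mean itself. The SubC probe set carries the suffix by which the maker marks probes that can match several members of a gene family, and the annotation gives it no source sequence, so its signal may not be from Mcl1 alone.

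Bcl2l1, which encodes BCL-XL, a guardian induced by T cell activation, was the gene nearest to no difference. Its 1 measured probe set had 1416.4 in CM and 1412.7 in E/EM cells, a log2 ratio of 0.0038, and 99.2% of all measured genes had a ratio of larger size. The sign of so small a value carries no information, and it was negative under 3 alternatives. The second probe set of the gene had 29.2 in CM and 4.3 in E/EM cells, both under the floor of 31.28, and gave no ratio.

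Among the 5 BH3-only genes, Bcl2l11, Bid and Bad had positive and Bbc3 and Pmaip1 negative ratios. Bcl2l11 encodes BIM and was close to even. Its 3 measured SubA probe sets had 1436.6, 218.1 and 247.3 in CM cells, against 1331.1, 229.2 and 216.6 in E/EM cells. The log2 ratios were 0.11, -0.07 and 0.19, with a mean of 0.08 ± 0.13 (SD, 3 probe sets), which is smaller than their own spread. A further Bcl2l11 probe set on SubC had 36.8 in CM and 100 in E/EM cells, both under the floor of 194.34.

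Bid, whose product is cut by caspase 8 and by granzyme B and then carries the death signal to mitochondria, had the highest mean ratio of the family. On SubA its signal was 406.0 in CM and 238.0 in E/EM cells (log2 ratio 0.77). On SubB it was 161.7 in CM and 121.8 in E/EM cells (0.41), and the weaker of these was only 1.38 times the floor. The SubB probe set carries the same suffix as the SubC one of Mcl1, so its signal may not be from Bid alone. Both probe sets were higher in CM cells, and the mean of 0.59 ± 0.26 (SD, 2 probe sets) was exceeded by 9.87% of all measured genes. With the brightest probe set of each gene alone, Mcl1 had 0.92 and stood above Bid at 0.77. Bad encodes a BH3-only protein held inactive by phosphorylation when growth factors are present. Its signals were 106.9 and 176.8 in CM cells, against 104.2 and 153.8 in E/EM cells. The ratios of 0.04 and 0.20 gave a mean of 0.12 ± 0.12 (SD, 2 probe sets).

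Pmaip1, which encodes NOXA, had the lowest ratio of the family, measured by a single SubB probe set with 1192.7 in CM and 2192.1 in E/EM cells. The log2 ratio was -0.88, a signal 1.84-fold lower in CM cells, and 7.04% of all measured genes lay lower still. Both signals were well clear of the floor, 13.5 and 24.9 times as high. Bbc3, which encodes PUMA, a target of p53 and of FOXO factors, was also lower in CM cells. Its single SubC probe set had 951.7 in CM and 1310.3 in E/EM cells, a ratio of -0.46. This probe set has a suffixed name, and without suffixed probe sets Bbc3 could not be measured. With 1 probe set each, neither Pmaip1 nor Bbc3 has a spread of its own. The median SD over probe sets among the 4094 genes with at least 2 measured ones was 0.32, a spread between probe sets that says nothing of how samples vary. A ratio larger in size than that of Pmaip1 was found in 11.0% of all measured genes, and one larger than that of Bbc3 in 33.8%.

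Bak1, the only one of the 2 pore formers among the 10 genes to be measured, had a lower signal in CM cells. Its 1 SubA probe set had 1175.6 in CM and 1637.6 in E/EM cells, a log2 ratio of -0.48, with 17.9% of all measured genes lower. In whole-population RNA such as this, a smaller share of cells with a transcript cannot be told apart from less of it per cell. By role, the 3 guardian genes had ratios between 0.0038 and 0.52, the 5 BH3-only genes between -0.88 and 0.59 and the pore former -0.48, so the ranges of the guardians and of the BH3-only genes overlap.

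**Figure D2:**
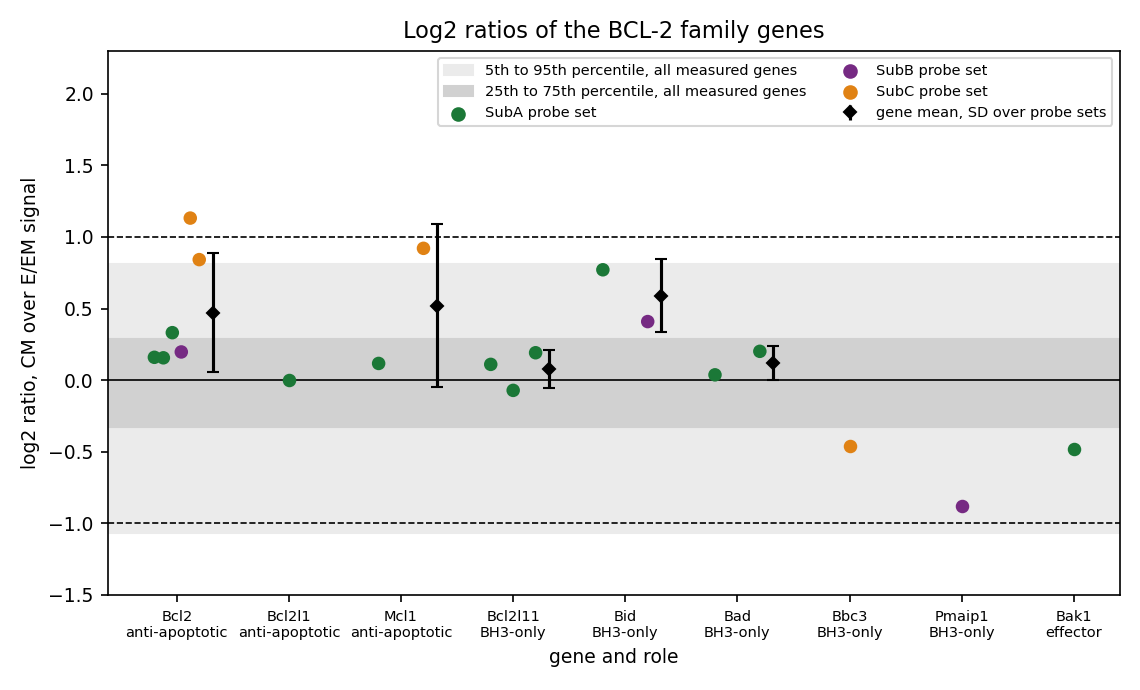
Difference in log2 signal, CM minus E/EM, for each measured probe set of the family, coloured by array type, with the gene mean and the SD over probe sets as a black diamond and bar where a gene has several. Grey bands give the 25th to 75th and the 5th to 95th percentile of all 10946 measured genes (-1.06 to 0.81 for the wider band), and dashed lines mark 2-fold; 1 SubC probe set of Bcl2, at 1.13, is past a dashed line.

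The ratios of Bcl2 and Mcl1 differed between the array types. Their 3 SubC probe sets had ratios of 1.13, 0.84 and 0.92, while their 5 probe sets on SubA and SubB lay between 0.12 and 0.33. All 3 SubC probe sets have a suffixed name and most of the other 5 a plain one. Of those 5, the suffixed one, a Bcl2 probe set on SubA, had a ratio of 0.16, and its suffix differs from those of the SubC ones. No SubC probe set of these genes has a plain name, and the parts of array type and kind of probe set were not tested. Bright SubC probe sets as a whole ran high in CM cells: the 361 with a mean log2 signal over 12, which include these 3, had a median ratio of 0.27 and quartiles of -0.21 and 0.68. The 400 such probe sets of SubA had a median of 0.03 and the 235 of SubB 0.08. All 3 SubC values of Bcl2 and Mcl1 lay above the upper quartile, and the part of this tilt in them was not tested. Once the ratios of each array type were centred on a smooth curve over signal, an alternative added after the data were seen, they came to 0.94, 0.52 and 0.52, and Bcl2 as a gene to 0.34 and Mcl1 to 0.29.

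Such gaps between array types were common. Over the 1642 genes measured on SubC and on at least one of the others, the SubC ratio was higher by a median of 0.11, and the median size of the gap was 0.47. Bcl2 had a gap of 0.78, exceeded in size by 28.7% of these genes, and Mcl1 one of 0.80, exceeded by 27.3%. Without SubC, Bcl2 had 0.21 and Mcl1 0.12, while Bbc3 could not be measured. Without suffixed probe sets, Bcl2 had 0.23 and Mcl1 0.12, and Bbc3 could not be measured either. Whether the SubC probe sets see other transcript forms was not tested.

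**Figure D3:**
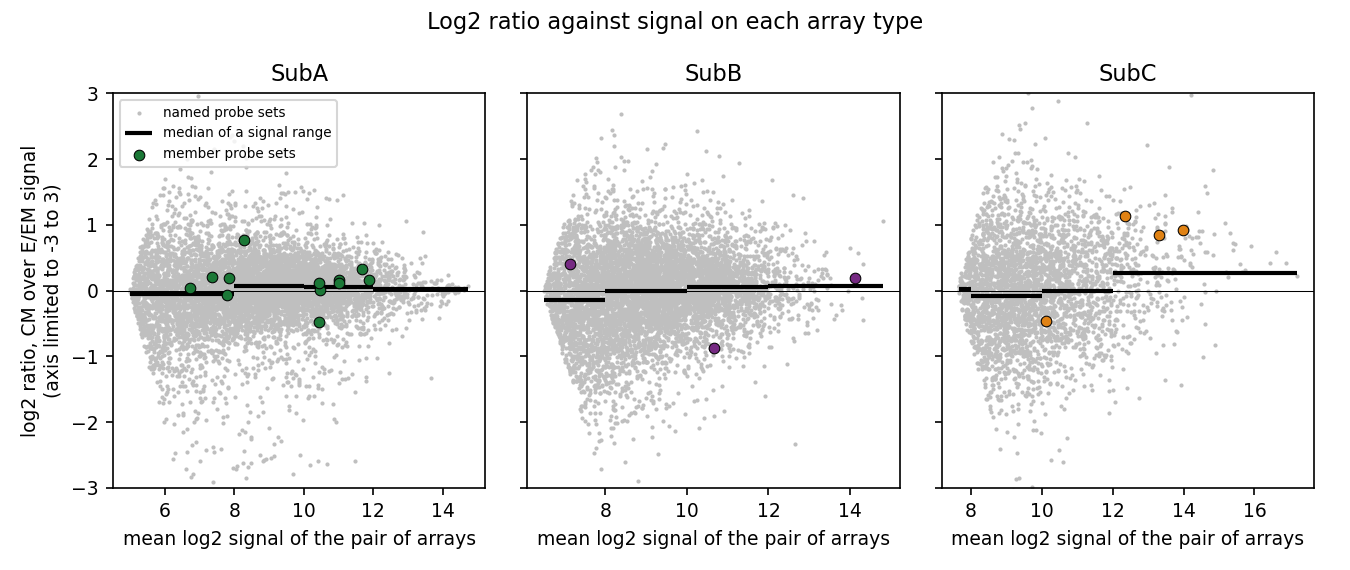
Difference in log2 signal, CM minus E/EM, against the mean log2 signal of the pair of arrays, for named probe sets above the floor on SubA, SubB and SubC (grey), with the family's probe sets in colour and black bars for the median of all probe sets, named or not, in successive signal ranges. On SubC the bar of the brightest range lies at 0.27, and the 3 bright coloured points above it belong to Bcl2 and Mcl1.

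Promoter sequences of 9 members were taken from RefSeq (GRCm38.p6), 15 annotated starts in all, for every member but Pmaip1, each with 250 bases before and 50 after the start. The search covered both strands for the letters bound by factors named for these genes or cytokines. STAT5, which IL-2 and IL-15 both activate, binds TTCNNNGAA. That motif was in 0 of the 15 windows, against 8.30% of all 32851 promoter windows of the table. The FOXO motif GTAAACA was in 2 of 15, against 3.65%, and these windows belong to Bcl2l11 and Bbc3, both described in the literature as FOXO targets. The E-box CACGTG was in 2 of 15 windows, those of Bax and Bbc3, against 7.15%, and TGACGTCA and TGATGNAA were in none, against 1.79% and 3.97%. No motif overlapped another in these windows. The FOXO matches are shown on the plus strand, which is the strand of both genes, with the match in capitals. The one of Bcl2l11 is the only match of any motif in a promoter of BIM, whose transcript was even between the kinds. The one of Bbc3, a gene with a ratio of -0.46, is shown beside it as the other FOXO match.

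Bcl2l11 (chr2:128125788-128125887, plus strand): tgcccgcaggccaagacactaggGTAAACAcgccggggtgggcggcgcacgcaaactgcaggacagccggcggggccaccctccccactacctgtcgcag
Bbc3 (chr7:16310083-16310112, plus strand): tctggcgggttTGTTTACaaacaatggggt

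The first stretch lies upstream of the annotated Bcl2l11 gene, with the match 227 bases before the start. The second lies inside the annotated Bbc3 gene, 167 bases before an internal start, and reads the motif on the opposite strand. These letters describe the windows and do not show binding. Of the factors themselves, named here for the motif and outside the rule for naming genes, Foxo3 had 886.9 in CM and 971.5 in E/EM cells (log2 ratio -0.13) and Foxo1 had 0.17 ± 0.50 (SD, 2 probe sets). The 2 Foxo1 probe sets disagreed in direction, at -0.185 and 0.53. A further one, with 29.8 in CM and 103.3 in E/EM cells, exceeded the floor in E/EM cells alone and gave no ratio.

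Other genes of the pathway were counted in 5 lists, A to E, beside the background of 5.61% of measured genes lower and 2.73% higher by 2-fold. List A held further BCL-2 family and BNIP genes, of which 13 of 20 were measured. In CM cells 2 of these were lower by 2-fold or more and 1 was higher, and their median ratio was -0.26. Bmf encodes a BH3-only protein that binds the dynein light chain and is released by loss of attachment or other stress. It had 394.0 in CM and 1300.3 in E/EM cells, a log2 ratio of -1.72, the lowest in the list. Bnip3, a mitochondrial protein induced by low oxygen that takes part in mitophagy, had 912.6 in CM and 2144.2 in E/EM cells (-1.23). Bik, another BH3-only gene, was the one at least 2-fold higher, with 113.8 in CM and 54.9 in E/EM cells (1.05), the weaker signal only 1.76 times the floor. Each of these 3 rests on 1 probe set, and Bik was no longer measured once the floor was doubled.

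The other BCL-2 relatives with a ratio lay within 2-fold. The guardian Bcl2l2 (BCL-W) had -0.47, the pore former Bok -0.21 and the guardian Bcl2l10 -0.15. Bcl2l12 had -0.32 ± 0.33 (SD, 3 probe sets), Bcl2l13 0.03 ± 0.20 (SD, 2 probe sets) and Bcl2l14 -0.10. The value of Bcl2l14 rests on 1 SubB probe set whose weaker signal was only 1.12 times the floor. SubC probe sets of Bcl2l14, with 149.3 and 78.6 in CM against 278.4 and 213.4 in E/EM cells, exceeded the floor in E/EM cells alone and gave no ratio. The same held for a further Bcl2l10 probe set, with 22.4 in CM and 52.4 in E/EM cells. Bnip1 had -0.30 ± 0.14 and Bnip2 -0.15 ± 0.31 (SD, 2 and 3 probe sets). The probe sets of Becn1, an autophagy protein that BCL-2 binds, disagreed between -1.27 and 0.30, and those of Bclaf1 between -1.40 and 0.44, so neither has a settled direction. The BH3-only gene Hrk, above the floor in CM cells alone, has only a bound and was at least 1.45-fold higher there. No gene of the Bcl2a1 cluster, guardians induced by NF-kappaB, was named by a probe set of its own.

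Downstream of the pore, none of the 17 measured genes of the mitochondrial death machinery (list B, 20 genes) differed by 2-fold, and the median was 0.08. Apaf1, the scaffold that assembles with cytochrome c, had the ratio largest in size, -0.60, with 595.7 in CM and 902.0 in E/EM cells. The mitochondrial fusion and fission dynamins Opa1 and Dnm1l had 0.55 ± 0.37 and 0.55 ± 0.47 (SD, 3 and 2 probe sets), and the effector caspase gene Casp6 had 0.52.

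List C held 24 genes for kinases, 14-3-3 proteins, ubiquitin enzymes and other proteins that act on family members after translation. Of the 21 measured, none was lower in CM cells by 2-fold and 2 were higher, and the median was 0.02. Sfn, the 14-3-3 sigma gene, had 1054.2 in CM and 483.5 in E/EM cells (1.12). Mapk8, the kinase JNK1, had 1.03 ± 0.37 (SD, 2 probe sets). It fell under 2-fold with the brightest probe set alone (0.77), the floor halved (0.86) or the floor at the 60th percentile (0.77). Pim2, a kinase that phosphorylates BAD, had -0.69 ± 0.16 (SD, 2 probe sets), and Dynll2, the dynein light chain that holds BMF, had -0.62 ± 0.67 (SD, 4 probe sets). The lowest Dynll2 probe set, at -1.59 on SubC, had a CM signal only 1.06 times the floor.

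List D held 18 transcription factors known to act on family genes. Of the 14 measured, 3 were lower in CM cells by 2-fold and none was higher, and the median was -0.14. Ddit3 (CHOP), a stress factor that raises Bcl2l11 and represses Bcl2, had 184.9 in CM and 664.0 in E/EM cells (-1.84). Cebpb had 514.9 in CM and 1232.4 in E/EM cells (-1.26), and Myb, which activates Bcl2, had 885.3 in CM and 1893.4 in E/EM cells (-1.10). Atf4, which activates Ddit3 and Pmaip1, had 2763.3 in CM and 4975.8 in E/EM cells (-0.85). The lower Ddit3 and Atf4 signals stood beside a lower Pmaip1 and an even Bcl2l11, and whether they are linked was not tested.

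In the death receptor pathway (list E, 16 genes) 2 of 14 measured genes were lower in CM cells by 2-fold and none was higher, and the median was -0.30. The adaptor Traf2 had -1.14 ± 1.19 (SD, 2 probe sets), with probe sets at -0.30 on SubA and -1.99 on SubC, so its size is not settled. The ubiquitin ligase gene Birc3 had 282.3 in CM and 573.3 in E/EM cells (-1.02) but -0.01 with the floor halved, which brings in 1 further probe set. Tnfsf10, the death ligand TRAIL, had 0.67 ± 0.23 (SD, 3 probe sets), and Tnf had -0.71.

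**Figure D4:**
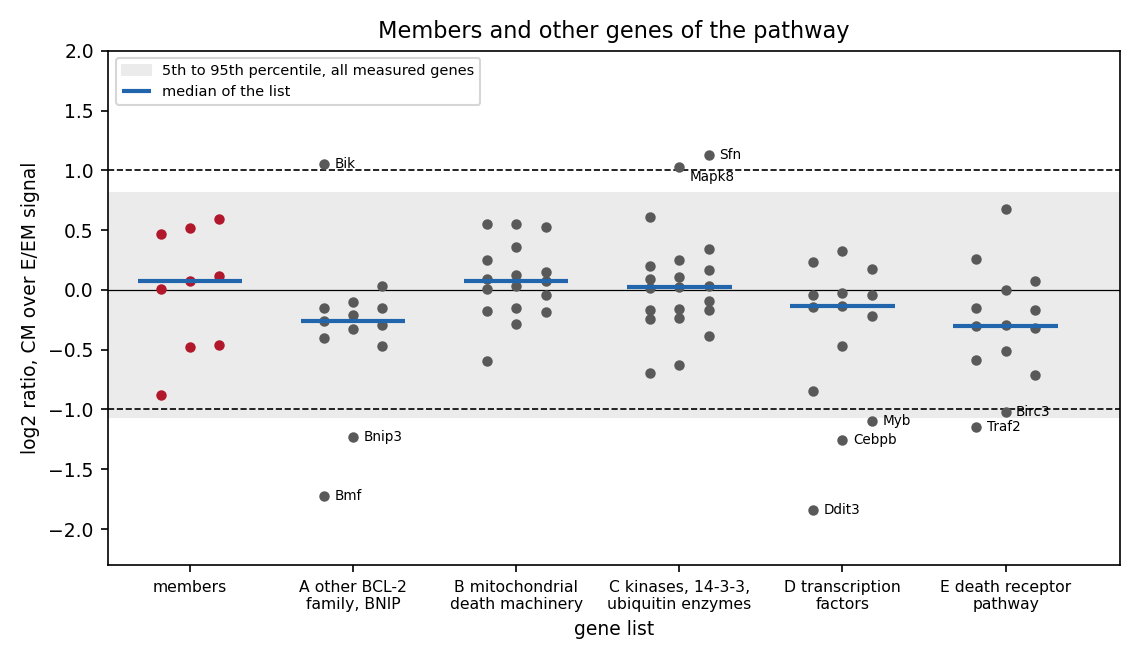
Difference in log2 signal, CM minus E/EM, of the 9 measured members (red) and of the measured genes of lists A to E (grey), 1 point per gene, with the list median as a blue bar, the 5th to 95th percentile of all measured genes as a band and 2-fold as dashed lines. No member lies past 2-fold; Bmf at -1.72 and Ddit3 at -1.84 are the lowest named points, and Sfn at 1.12 the highest.

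Markers of cell types were read on the same arrays, by the brightest probe set of each gene. All 8 CD8 T cell markers were above the floor in both kinds, with summed signals of 49143 in CM and 48129 in E/EM cells. Among them Cd3e, Cd3g and Thy1 were lower in CM cells and the others higher. The 6 measured effector markers summed to 8842 in CM and 34986 in E/EM cells, and the 6 measured central memory or naive markers to 13933 in CM and 9248 in E/EM cells, sums in which the brightest genes weigh most. Of the central memory or naive markers Il7r ran the other way, with 601.0 in CM and 820.9 in E/EM cells. Of B cell markers 5 of 5 were above the floor in CM and 4 of 5 in E/EM cells, with sums of 5816 and 4244 that rest mostly on Ighm. They did not run one way. Ighm, Cd79b and Cd22 were higher in CM cells, Cd22 with only 36.3 there, against a floor of 31.28. Cd79a had 55.9 in CM and 79.5 in E/EM cells, and Ms4a1 had 46.8 in CM and 64.7 in E/EM cells. Macrophage, monocyte and neutrophil markers summed to 279.2 in CM and 439.4 in E/EM cells, with Lyz2, Adgre1 and S100a8 under the floor in both. All 4 dendritic cell markers were above the floor, with sums of 747.6 in CM and 956.6 in E/EM cells, and they did not run one way. Itgax had 130.3 in CM and 43.1 in E/EM cells, and H2-Aa had 319.8 in CM and 252.9 in E/EM cells. H2-Ab1 had 211.0 in CM and 516.5 in E/EM cells, and Cd74 had 86.5 in CM and 144.1 in E/EM cells. Of helper T cell markers Cd4 was above the floor in both kinds and Zbtb7b in E/EM cells alone. Erythroid markers summed to 187.9 in CM and 188.8 in E/EM cells, but Hba-a1 had 109.5 in CM and 78.0 in E/EM cells. Klf1 had 78.4 in CM and 110.8 in E/EM cells. The natural killer marker Ncr1 was under the floor in both. B cells also express Bcl2, and the part of these cell types in the values of the family was not tested.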

How the data were processed

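Total RNA was measured on 6 arrays, 1 per kind of cell and array type, grouped by their titles. The deposited values are linear intensities, 1 table per array type. How the authors processed the scans was not given in the sources used here. Means without the lowest and highest 2% lay between 500.1 and 500.3 on every array, so the values were used as deposited. Such means speak only for a common scale of the arrays. They cannot show whether ratios are even over the range of signal, and those of bright SubC probe sets were not. Symbols came from GEO's platform annotation, checked by gene identifier against RefSeq (GRCm38.p6). Only probe sets with a single symbol were given a gene. For each array type, the 90th percentile of 15 bacterial poly-A control probe sets was taken on both arrays, and the higher value was the floor. The number of arrays limits the precision, and no p-value was computed.

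Named were all members, all measured genes of list A, and up to 4 genes of each other list with the ratio largest in size. Hrk, which has only a bound, and Foxo1 and Foxo3 are named outside this rule. The members and lists were chosen with earlier results of these data known. Other floors, scalings, centrings, probe-set rules and fold rules were tried, 10 chosen at the outset and 3 added after the data were seen. Calculations used Python 3.11.15, numpy 2.4.6, pandas 2.3.3 and statsmodels 0.14.6, and were tested on simulated data. A protein search was intended and is not reported, because no protein sequences were used here.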

Additional observations from a re-analysis of the deposited data

How the results depend on the processing

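With 1 array per kind and array type, no replicate could be left out. No paired analysis was possible because each group holds 1 array and no test was made. The counts of members at least 2-fold lower or higher in CM cells stayed at 0 under quantile normalization, both centrings, 3 other floors, the brightest probe set or the median per gene, without suffixed probe sets, on SubA alone and on SubA with SubB. The 1.5-fold rule gave 1 lower and 1 higher. The members' median stayed between 0.0038 and 0.12 over 11 alternatives. Of 93 member values recomputed, 3, all of Bcl2l1, changed sign. The widest range was that of Mcl1, from 0.12 without suffixed probe sets to 0.92 with the brightest one. Bcl2 had 0.20 with the brightest probe set. The floor at the 60th percentile left 7 members measured, and leaving out suffixed probe sets left 8. Over all genes, 614 were lower and 299 higher by 2-fold in CM cells, against 948 and 480 with the floor halved, 385 and 210 with it doubled, 270 and 182 with the floor at the 60th percentile, and 256 and 123 on SubA alone; these settings measured different numbers of genes. Low signals limit Bid on SubB, Bik, Bcl2l10 and Bcl2l14, each under 2 times the floor on the weaker array. The same held for the weakest measured probe set of Bcl2l12, Becn1, Bclaf1, Dynll2 and Tnfsf10.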
